A study of Mus musculus with 10 samples.

Results

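Erythroid genes, the genes that red blood cells and their precursors need, were followed in RNA from whole mouse cochlea. The set holds 30 genes named by symbol for their known roles in the red cell lineage. Of these, 28 had a row among the 27179 gene IDs of the count table, and all 28 passed the filter on low counts. Hbb-bt (Entrez 101488143), an adult beta-globin gene, had no row, and Ahsp was not analysed here. Cochleas were taken from mice of 8 days of age, and the labels give Pknox2-/- for 5 libraries and Pknox2+/+ for the other 5. These are called labelled knockout 1 to 5 and wild type 1 to 5. The series calls them independent biological samples, but how many pups a library holds, their sex and strain, and how the allele was made are not stated in the labels. P-values therefore measure the spread between these libraries.

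Red blood cells arise in bone marrow, which the temporal bone around the cochlea also holds, and in young mice in spleen and liver too. Erythropoietin acts through its receptor on progenitors in which the transcription factors GATA1, TAL1 and KLF1 switch on the genes for globin, haem synthesis and the red cell membrane. The erythroblast then loses its nucleus. The reticulocyte and the young red cell that reach the blood keep mainly long-lived transcripts such as those of globin and Alas2. A dissected cochlea can hold blood in its vessels as well as marrow in its bone. In bulk RNA these sources cannot be told apart by a gene that both express, nor can fewer cells be told apart from less RNA per cell. Which source the RNA came from was not tested.

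Library totals ran from 16.6 to 19.4 M counts. All 15 cochlear markers on the list, such as Otoa, Tecta and Tmc1, were detected, with summed levels of 2599 to 3128 CPM in wild type and 2017 to 2400.0 CPM in labelled knockout, so that the sums did not overlap, while 9 of the 15 genes had log2 fold changes below 0 with a median of -0.15. CPM is the count per M counts of the library after TMM scaling. Pknox2 (Entrez 208076) ran from 17.04 to 21.7 CPM in wild type and from 17.1 to 27.99 CPM in labelled knockout, with a log2 fold change of 0.08 (SE 0.146, edgeR adjusted p = 0.736). Its count therefore did not separate the labels, and the labels do not say which exons the allele lacks. Over all genes, 0.0187% of 16018 were called at an adjusted p under 0.05 by edgeR's quasi-likelihood test, which is 3 genes.

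No erythroid gene was called different between the groups, yet 27 of the 28 had a log2 fold change below 0, that is, a lower fitted level in labelled knockout. Of all tested genes, 51.7% lay below 0. The exception was Epor at 0.03 (SE 0.231, edgeR adjusted p = 0.935). The median log2 fold change over the 28 genes was -0.45, against -0.01 over all tested genes. The 28 genes moved together from library to library, as given below, so their signs are not 28 separate observations. They were also chosen with earlier results of these data known. No gene had every labelled knockout library below every wild-type library, against 1.22% of all tested genes. Of the erythroid genes, 4 had an unadjusted edgeR p under 0.05, which is 14.3%, against 20.1% of all genes. They were Ank1, Sptb, Xk and Tfrc. The smallest adjusted p was 0.218, for Ank1. DESeq2 called none of the 28, against 1.48% of the genes it tested, and gave 5 of them (17.9%) an unadjusted p under 0.05, against 17.6% of its genes. Limma-voom also called none, against 0.0187% of all genes, and gave 2 of them (7.14%) an unadjusted p under 0.05, against 20.9% of all genes.

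The libraries of each group differed widely in these genes, and together. The median SD of log2 CPM between wild-type libraries was 0.61 over the erythroid genes and 0.21 over all tested genes. In labelled knockout it was 0.48 and 0.29. All 28 genes had a wild-type SD above the median of all genes. As a summary of each library, the median deviation of the 28 genes from their own mean log2 CPM was 0.27, 0.61, 0.68, -0.66 and -0.05 in wild type 1 to 5. It was 0.14, -0.54, -0.21, -0.65 and 0.23 in labelled knockout 1 to 5. Thus wild type 2 and 3 were high, and wild type 4 was as low as labelled knockout 4. Wild type 4 was the lowest wild-type library for 26 genes, all but Hbb-bs and Tspo2. The highest wild-type library was wild type 3 for 15 genes, wild type 2 for 11 and wild type 1 for Alas2 and Bpgm. Among the labelled knockouts, library 4 was the lowest for 18 genes and library 2 for 9.

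Levels of different genes were compared per kb of the longest transcript, as means over 10 libraries. Hba-a1 stood highest at 3437 CPM per kb and Hba-a2 next at 278, though the split of counts between these near copies is uncertain. Beta-globin could not be ranked here. Most of its counts stood in Hbb-b1, a row outside the set without a transcript length, at a mean of 1596 CPM. Alas2 followed at 142 and Slc4a1 at 97.1. The regulators Klf1, Gata1, Epor and Tal1 stood at 35.4, 16.4, 15.2 and 14.4 CPM per kb, and Xk was lowest at 2.51.

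The fold changes of the erythroid genes depended on single libraries. Wild type 2 and wild type 3 both lay above every labelled knockout library for 20 of the 28 genes, while wild type 4 lay below the labelled knockout median for 25. Wild type 4 was the lowest wild-type library for 26 genes, so lower fold changes in these follow from leaving it out. Without wild type 4, 19 of 28 erythroid genes had an unadjusted edgeR p under 0.05, against 17.6% of all genes in that fit. None of the 28 was called there, against 1 of 16109 over all genes. The median log2 fold change of the 28 was -0.62. Without labelled knockout 1 the count was 9, or 32.1%, against 35.3% of all genes, with a median of -0.54 and a smallest edgeR adjusted p of 0.0555. It was 1 without wild type 3, against 12.8% of all genes, with a median of -0.30. It was 2 without wild type 2, against 23.1%, with a median of -0.34. Without labelled knockout 2 it was 2, against 11.7%, and without labelled knockout 3 it was 1, against 10.8%. With labelled knockout 4 left out the count was 3 (10.7%), against 28.9%, and with labelled knockout 5 left out 5 (17.9%), against 11.8%. It was 3 (10.7%) without wild type 1, against 14.9%, and 4 (14.3%) without wild type 5, against 12.2%. The share of all genes thus moved with the library left out as well.

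**Figure D1:**
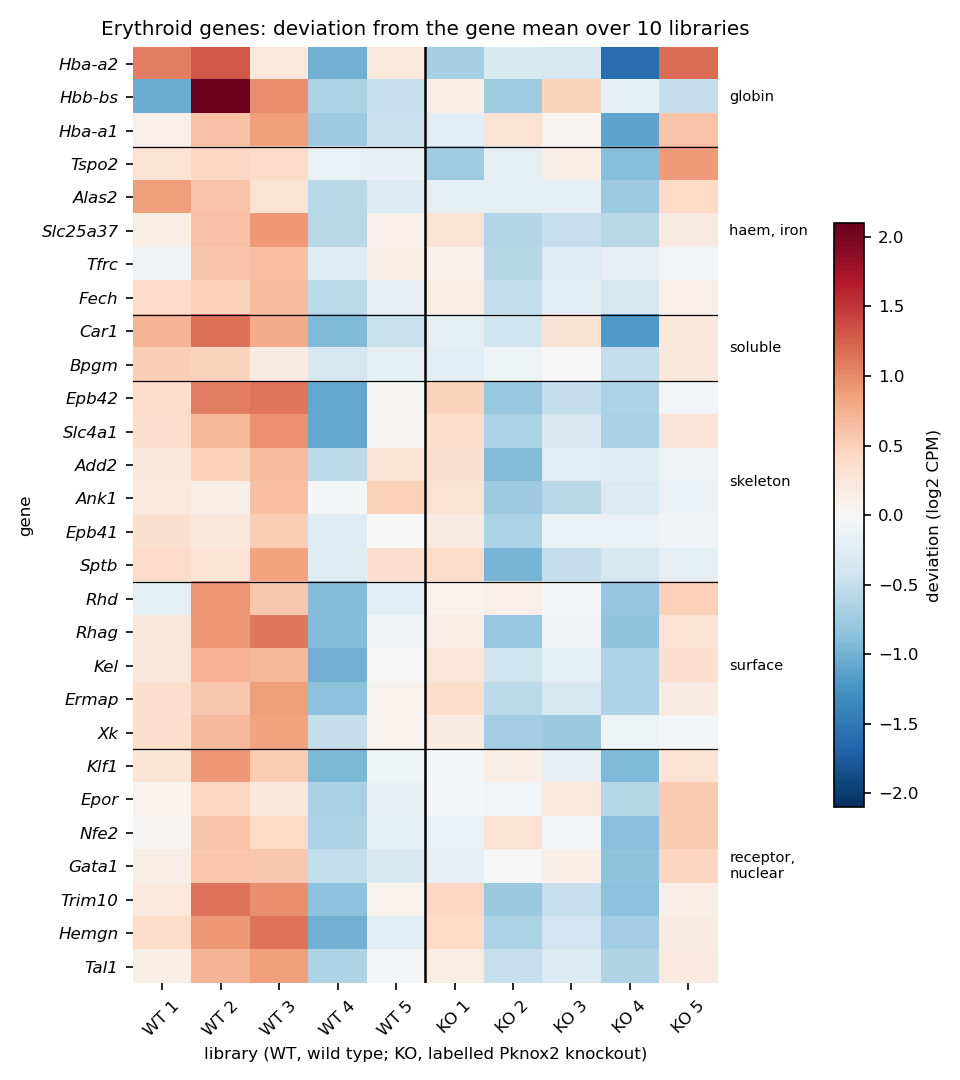
Deviation of each erythroid gene (rows, grouped by role) from its own mean over 10 libraries, in log2 CPM, for wild type 1 to 5 and labelled knockout 1 to 5 (columns). Wild type 2 and 3 are high for most genes, and wild type 4 and labelled knockout 4 are low, with medians of -0.66 and -0.65 over the 28 genes.

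Hba-a1 and Hba-a2 encode the adult alpha-globin chain, and Hbb-bs and Hbb-bt the beta chain that pairs with it in haemoglobin. In GRCm38 they lie at chr11:32283672-32284486, chr11:32296492-32297310, chr7:103826523-103827928 and chr7:103812524-103813923. The members of each pair are near copies: their coding sequences, of 429 bases for alpha and 444 for beta, are 99.8% identical and differ at a single base. The stretches that hold this base are shown (GENCODE M21, coding strand, 5′ to 3′) because the rest of the coding sequence is the same in both copies, so that the split of counts between copies is uncertain. The capital marks the base that differs. The alpha stretches are bases 351 to 411 of the coding sequence and the beta stretches 384 to 444.
Hba-a1: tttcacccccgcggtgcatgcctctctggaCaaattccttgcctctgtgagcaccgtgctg
Hba-a2: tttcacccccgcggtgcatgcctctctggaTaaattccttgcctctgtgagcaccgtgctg
Hbb-bs: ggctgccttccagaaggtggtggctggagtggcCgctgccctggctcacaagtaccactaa
Hbb-bt: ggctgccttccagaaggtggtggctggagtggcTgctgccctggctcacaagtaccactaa

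Of all windows of 50 bases in the longest Hba-a1 transcript, 67.5% also occur in that of Hba-a2, and 65.8% of those of Hbb-bs occur in that of Hbb-bt. How reads that match both copies were counted is not given, so the totals of the globin rows are uncertain as well as their split. Hba-a1 stood at 1877, 2721, 2312, 1029 and 3357 CPM in labelled knockout 1 to 5 and at 2374, 3378, 4062, 1298 and 1615 CPM in wild type 1 to 5. Wild type 3 was the highest and labelled knockout 4 the lowest, and the groups overlapped over most of their ranges. The means were 2546 ± 1167 CPM in wild type and 2259 ± 878 CPM in labelled knockout (SD, n = 5 each), and the log2 fold change was -0.17 (SE 0.346, edgeR adjusted p = 0.765). Its direction turned without labelled knockout 4 (0.01) or wild type 3 (0.06). Hba-a2 stood at 77.8, 101, 98.3, 41.6 and 286 CPM in labelled knockout 1 to 5 and at 265, 312, 148, 63.1 and 147 CPM in wild type 1 to 5. Wild type 1 and 2 and labelled knockout 5 were high, and the others lay lower, so that here too the groups overlapped. The log2 fold change of Hba-a2 was -0.63 (SE 0.494, edgeR adjusted p = 0.423). Hba-a1 held 90.0% to 96.5% of the counts of the pair in every library.

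Hbb-bs stood at 36.4, 19.8, 45.7, 28.7 and 23.5 CPM in labelled knockout 1 to 5 and at 16.1, 138, 65.3, 20.8 and 23.7 CPM in wild type 1 to 5. Wild type 2 stood far above the rest, and every labelled knockout library lay within the wild-type range. The log2 fold change was -0.78 (SE 0.528, edgeR adjusted p = 0.364), and it was -0.03 without wild type 2. Most beta-globin counts stood in another row, Hbb-b1 (Entrez 15129), an adult beta-globin gene of another mouse haplotype that is not on the list. It was looked at after its values were seen. Hbb-bs held 0.79% to 4.80% of the counts of these 2 rows, and which transcripts the reads came from cannot be told from the counts. Hbb-b1 stood at 1245, 1247, 1311, 637 and 2258 CPM in labelled knockout 1 to 5 and at 2031, 2732, 2514, 813 and 1174 CPM in wild type 1 to 5. Its log2 fold change was -0.47 (SE 0.359, edgeR adjusted p = 0.413), and its groups also overlapped. All 4 globin rows together took 0.174% of counts in labelled knockout 4, the lowest, and 0.688% in wild type 3, the highest. The ratio of alpha to beta rows ran from 1.29 in wild type 2 to 2.23 in labelled knockout 2.

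**Figure D2:**
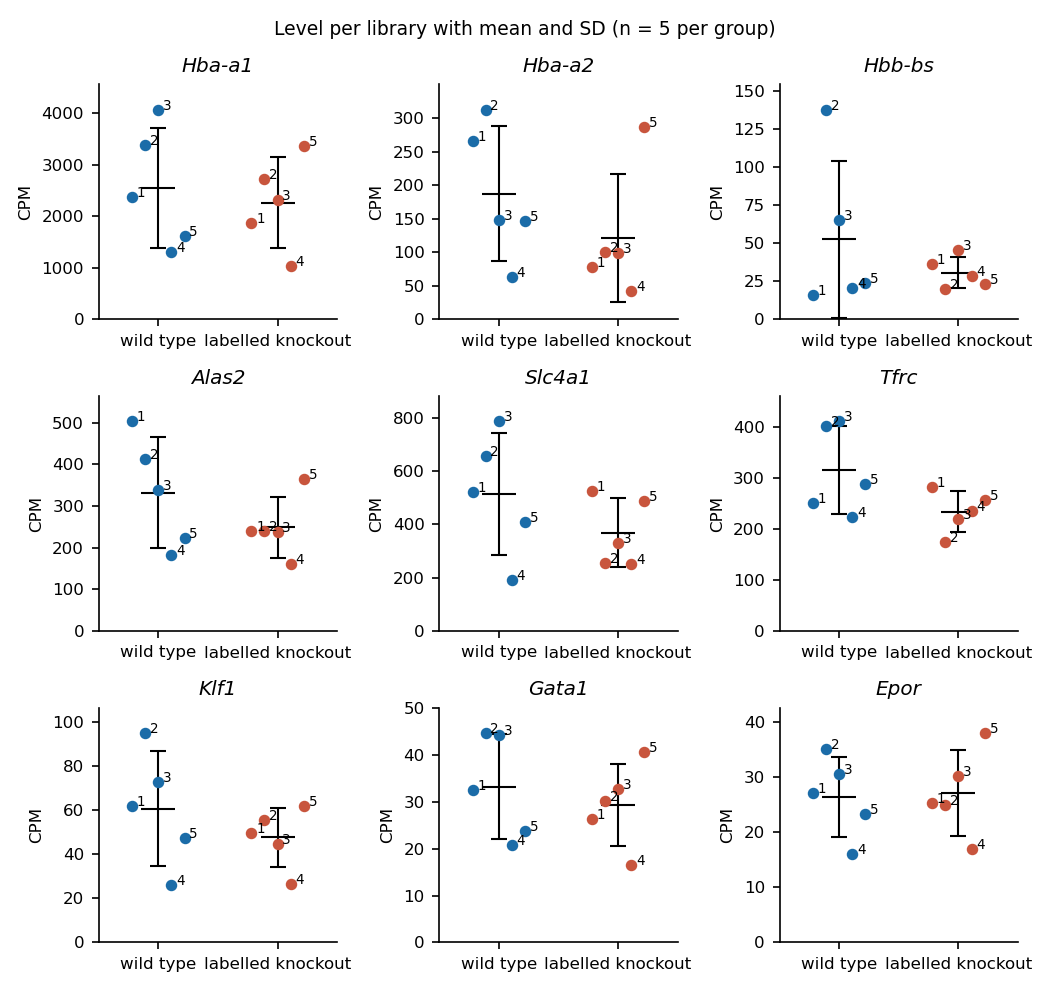
Level in each library (CPM, axes from 0) of 9 erythroid genes in wild type and labelled knockout, with the group mean and SD (n = 5 each). The groups overlap in every panel, and wild type 4 is the lowest wild-type library in every panel but that of Hbb-bs.

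Haem is built from an intermediate made in mitochondria, and iron is added last. Alas2 (Entrez 11656, chrX:150547417-150570622, GRCm38) encodes the erythroid aminolevulinate synthase, the first enzyme of the path. Alas2 stood at 239, 239.7, 238, 162 and 364 CPM in labelled knockout 1 to 5 and at 504, 413, 338, 182 and 223 CPM in wild type 1 to 5. Wild type 1 and 2 stood above every labelled knockout library, and wild type 3 to 5 lay within the labelled knockout range. The means were 332 ± 133 CPM in wild type and 249 ± 72.8 CPM in labelled knockout (SD, n = 5 each), and the log2 fold change was -0.42 (SE 0.276, edgeR adjusted p = 0.352). Tfrc, the transferrin receptor that brings iron into the cell and is made by dividing cells in general, was among the genes with an unadjusted p under 0.05. Tfrc stood at 283, 175, 220.5, 236 and 257 CPM in labelled knockout 1 to 5 and at 252, 402, 412, 224 and 289 CPM in wild type 1 to 5. The 2 highest values were those of wild type 2 and 3, and labelled knockout 2 and 3 lay below all wild types. Its log2 fold change was -0.43 (SE 0.188, edgeR adjusted p = 0.241), with an unadjusted p of 0.03997. Mitoferrin, Slc25a37, which carries iron into mitochondria, ranged over 109.6 to 309 CPM in wild type and 108 to 203 CPM in labelled knockout, with a log2 fold change of -0.51 (edgeR adjusted p = 0.281). Ferrochelatase, Fech, which inserts the iron, ranged over 101 to 238 CPM in wild type and 104 to 167 CPM in labelled knockout, with a log2 fold change of -0.38 (edgeR adjusted p = 0.305). Tspo2, an erythroid membrane protein related to the mitochondrial translocator protein, had the fewest counts of the set, with 24 to 83 a library, and a log2 fold change of -0.22 (edgeR adjusted p = 0.691). All 5 genes of haem and iron lay below 0, with a median of -0.42.

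Car1 and Bpgm encode soluble red cell enzymes. Car1 is carbonic anhydrase, which speeds carbon dioxide transport. Car1 stood at 19.6, 16.9, 28.5, 9.92 and 26.9 CPM in labelled knockout 1 to 5 and at 37.2, 50.9, 39.3, 11.8 and 16.3 CPM in wild type 1 to 5. Wild type 1 to 3 stood above every labelled knockout library, while wild type 4 and 5 lay below 4 of them. The log2 fold change was -0.61 (SE 0.386, edgeR adjusted p = 0.335). Bpgm makes the bisphosphoglycerate that lowers the oxygen affinity of haemoglobin. Bpgm stood at 90.6, 98.9, 106, 74.3 and 125 CPM in labelled knockout 1 to 5 and at 152, 146, 119.5, 82.9 and 93.1 CPM in wild type 1 to 5. Wild type 1 and 2 stood above all other libraries. Its log2 fold change was -0.26 (SE 0.185, edgeR adjusted p = 0.378).

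The red cell membrane is held by a spectrin and actin net, tied by ankyrin to the anion exchanger of the membrane. Slc4a1 (Entrez 20533, chr11:102348820-102365281, GRCm38) encodes the exchanger. Slc4a1 stood at 524, 253, 329, 253 and 488 CPM in labelled knockout 1 to 5 and at 522, 656, 788, 193 and 409.9 CPM in wild type 1 to 5. Wild type 4 was the lowest of all 10 libraries and wild type 3 the highest, so the labelled knockouts lay inside the wild-type range. The means were 514 ± 229 CPM in wild type and 369 ± 129 CPM in labelled knockout (SD, n = 5 each), and the log2 fold change was -0.48 (SE 0.333, edgeR adjusted p = 0.376). Epb41, whose protein ties spectrin to actin, is also made in neurons and other cells. Epb41 stood at 179, 99.04, 143, 142 and 149.8 CPM in labelled knockout 1 to 5 and at 199, 185, 226, 131 and 155 CPM in wild type 1 to 5. Its log2 fold change was -0.33 (SE 0.172, edgeR adjusted p = 0.276), and labelled knockout 2 alone lay below every wild type.

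Ank1 and Sptb, ankyrin and beta-spectrin, had the smallest p-values of the whole erythroid set. Ank1 stood at 166, 79.1, 89.2, 110.4 and 123 CPM in labelled knockout 1 to 5 and at 156, 147, 208, 132 and 189 CPM in wild type 1 to 5. Labelled knockout 2, 3, 4 and 5 lay below every wild type, and labelled knockout 1 lay among them. The log2 fold change of Ank1 was -0.55 (SE 0.195, edgeR adjusted p = 0.218), with an unadjusted p of 0.0151. Sptb stood at 181, 70.8, 97.9, 109 and 120.0 CPM in labelled knockout 1 to 5 and at 184, 169.9, 249, 116 and 177 CPM in wild type 1 to 5. Here 3 labelled knockout libraries lay below the lowest wild type. Its log2 fold change was -0.63 (SE 0.240, edgeR adjusted p = 0.226). Epb42, which binds the exchanger, ranged over 11.7 to 54.4 CPM in wild type and 14.3 to 34.4 CPM in labelled knockout, with a log2 fold change of -0.73 (edgeR adjusted p = 0.270). Add2, beta-adducin, which caps actin at the net, ranged over 26.5 to 61.9 CPM in wild type and 20.6 to 49.1 CPM in labelled knockout, with a log2 fold change of -0.46 (edgeR adjusted p = 0.276). All 6 genes lay below 0, with a median of -0.51. These are long transcripts, and with each library's trend over length and GC content removed 5 of 6 lay below 0 with a median of -0.36.

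Surface proteins of red cells carry blood group antigens. Ermap, an immunoglobulin-family membrane protein, carries one such antigen in humans. Ermap stood at 103, 52.8, 62.1, 49.8 and 88.1 CPM in labelled knockout 1 to 5 and at 99.96, 116, 145, 43.2 and 82.3 CPM in wild type 1 to 5. The highest libraries were wild type 2 and 3 and the lowest wild type 4. Its log2 fold change was -0.45 (SE 0.291, edgeR adjusted p = 0.345). Rhd, the Rh protein, and Rhag, its partner in the membrane, belong to an ammonium transporter family. Rhd stood at 60.5, 61.9, 56.6, 32.7 and 81.6 CPM in labelled knockout 1 to 5 and at 50.7, 109.7, 85.3, 30.6 and 48.6 CPM in wild type 1 to 5. Wild type 2 and wild type 4 were the ends of the range, and the log2 fold change was -0.15 (SE 0.317, edgeR adjusted p = 0.780). It was 0.12 without wild type 2, the opposite direction. Rhag ranged over 18.3 to 73.97 CPM in wild type and 19.2 to 42.8 CPM in labelled knockout, with a log2 fold change of -0.59 (edgeR adjusted p = 0.309). Kel, a peptidase of the surface, and Xk, the membrane protein it is linked to, had log2 fold changes of -0.33 (edgeR adjusted p = 0.478) and -0.61 (edgeR adjusted p = 0.240). The unadjusted p of Xk was 0.0386. All 5 genes lay below 0, with a median of -0.45.

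Of the 7 regulators and nuclear proteins 6 lay below 0, with a median of -0.35. Epor (Entrez 13857, chr9:21958897-21963576, GRCm38), the erythropoietin receptor, starts the program. Epor stood at 25.3, 24.97, 30.3, 17.00 and 38.1 CPM in labelled knockout 1 to 5 and at 27.2, 35.2, 30.6, 16.1 and 23.4 CPM in wild type 1 to 5. Labelled knockout 5 was the highest of all libraries and wild type 4 the lowest. Its means were 26.5 ± 7.28 CPM in wild type and 27.2 ± 7.78 CPM in labelled knockout (SD, n = 5 each). Gata1 (Entrez 14460, chrX:7959260-7976663), the zinc-finger factor of red cells, megakaryocytes and mast cells, was lowest in labelled knockout 4. Gata1 stood at 26.4, 30.1, 32.7, 16.5 and 40.7 CPM in labelled knockout 1 to 5 and at 32.4, 44.7, 44.3, 20.8 and 23.8 CPM in wild type 1 to 5. High values stood in wild type 2 and 3 and labelled knockout 5, and the log2 fold change was -0.18 (SE 0.259, edgeR adjusted p = 0.663). Klf1 (Entrez 16596, chr8:84901982-84905291) activates adult beta-globin. Klf1 stood at 49.4, 55.5, 44.7, 26.4 and 61.9 CPM in labelled knockout 1 to 5 and at 61.9, 95.1, 72.9, 26.1 and 47.4 CPM in wild type 1 to 5. Wild type 4 and labelled knockout 4 were nearly equal and lowest, and the log2 fold change was -0.35 (SE 0.303, edgeR adjusted p = 0.466).

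Tal1, the helix-loop-helix partner of GATA1, and Hemgn, a nuclear protein of erythroid cells, act inside the nucleus. Hemgn stood at 80.8, 38.1, 45.9, 36.4 and 68.3 CPM in labelled knockout 1 to 5 and at 79.4, 115, 134, 30.02 and 52.2 CPM in wild type 1 to 5. The ends of the range were again wild type 3 and wild type 4. The log2 fold change of Hemgn was -0.61 (SE 0.363, edgeR adjusted p = 0.317). Tal1 stood at 63.1, 40.5, 46.6, 36.8 and 65.9 CPM in labelled knockout 1 to 5 and at 61.97, 93.3, 105, 36.3 and 55.5 CPM in wild type 1 to 5. The same libraries were at the ends, and the log2 fold change was -0.48 (SE 0.267, edgeR adjusted p = 0.294). Trim10, a protein of late erythroid cells, ranged over 23.3 to 93.98 CPM in wild type and 23.3 to 56.99 CPM in labelled knockout, with a log2 fold change of -0.70 (edgeR adjusted p = 0.273). Nfe2, a leucine-zipper factor also needed for platelets, ranged over 26.3 to 62.4 CPM in wild type and 22.3 to 60.6 CPM in labelled knockout, with a log2 fold change of -0.07 (edgeR adjusted p = 0.873). Its direction turned without labelled knockout 4 (0.08), wild type 2 (0.08) or wild type 3 (0.015).

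GATA1 binds GATA motifs and KLF1 binds CACC boxes. The GATA motif was searched as AGATAA, as AGATAG and, with T as its first base, as TGATAA or as TGATAG. The CACC motif was searched as CCNCACCC. Both were searched on both strands in the 250 bases before 1 transcript start per gene in RefSeq (GRCm38.p6), for the 23 erythroid genes with an entry, of which 22 had counts. For 16 of them that start is also the start of the annotated gene, and for 7 it lies inside it. Of these 23, 16 held a GATA motif, against 27.1% of 27025 promoters. A CACC motif stood in 7, against 14.7% of all, and both stood in 3 (Alas2, Epor and Hbb-bs), against 2.9%. The genes were listed for their lineage, so this is a description, and a match is not shown to be a bound site. The promoters shown are those of the genes with both motifs, Alas2, Epor and Hbb-bs, and that of Klf1, and each ends where its gene starts. Capitals mark the motifs, 5′ to 3′ on the gene's strand. The GATA motifs of Alas2, Klf1 and Epor lie on the opposite strand and so begin TTATC here. The CACC motifs of Alas2 also lie on the opposite strand. In Alas2 the GATA motif starts 86 bases before the start of the gene, and 2 overlapping CACC motifs start 40 and 35 bases before it. In Klf1 a GATA motif starts 80 bases before the gene. In Epor a CACC motif starts 124 and a GATA motif 54 bases before the gene, and in Hbb-bs a GATA motif starts 210 and a CACC motif 93 bases before it.
Alas2, chrX:150547167-150547416, plus strand: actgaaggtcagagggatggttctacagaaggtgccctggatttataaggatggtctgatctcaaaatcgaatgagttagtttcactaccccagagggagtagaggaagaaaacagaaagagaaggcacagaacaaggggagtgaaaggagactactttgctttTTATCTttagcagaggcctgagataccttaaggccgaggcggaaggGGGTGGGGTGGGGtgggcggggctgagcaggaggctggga
Klf1, chr8:84901732-84901981, plus strand: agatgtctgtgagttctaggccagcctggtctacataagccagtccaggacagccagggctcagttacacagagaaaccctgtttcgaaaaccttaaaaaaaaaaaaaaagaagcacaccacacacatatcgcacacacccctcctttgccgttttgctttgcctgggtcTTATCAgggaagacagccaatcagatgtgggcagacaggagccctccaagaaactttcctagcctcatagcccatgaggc
Epor, chr9:21963577-21963826, minus strand: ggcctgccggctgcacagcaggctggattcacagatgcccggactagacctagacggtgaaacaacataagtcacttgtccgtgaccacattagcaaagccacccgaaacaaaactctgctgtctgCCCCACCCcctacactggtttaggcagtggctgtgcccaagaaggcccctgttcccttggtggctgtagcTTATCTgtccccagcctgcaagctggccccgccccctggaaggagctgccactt
Hbb-bs, chr7:103827929-103828178, minus strand: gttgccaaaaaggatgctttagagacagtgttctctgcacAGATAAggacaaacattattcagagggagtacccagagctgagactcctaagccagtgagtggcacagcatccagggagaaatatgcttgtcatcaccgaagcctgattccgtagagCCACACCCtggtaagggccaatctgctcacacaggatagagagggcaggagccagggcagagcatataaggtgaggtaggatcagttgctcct

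Transcripts that persist in circulating red cells were compared with those of nucleated erythroblasts. The first group was Hba-a1, Hba-a2, Hbb-bs and Alas2, and the second 13 erythroblast genes, among them Klf1, Gata1, Epor, Slc4a1 and Rhag. The other 11 genes, such as Tfrc, Ank1 and Fech, were set apart because other cell types make them too. The split is not clean, since Gata1 is also a factor of megakaryocytes and mast cells. These groups rest on known biology, and erythroblasts make globin too. In each sum 1 gene weighed most. Hba-a1 had a mean of 2402 CPM over the 10 libraries, and Alas2, the next in its group, 290 CPM. Slc4a1 had a mean of 442 CPM, and Ermap, the next of the 13, 84.1 CPM. Summed levels of the circulating group were 3159.5, 4241, 4614, 1563 and 2009 CPM in wild type 1 to 5 and 2230.4, 3081, 2694, 1261 and 4031 CPM in labelled knockout 1 to 5. Those of the erythroblast group were 1081, 1501, 1617, 446 and 848 CPM in wild type and 1067, 624, 746, 526 and 1061 CPM in labelled knockout, in the same order. Both sums were high in wild type 2 and 3 and low in wild type 4 and labelled knockout 4. Labelled knockout 1 and 5 had nearly the same erythroblast sum, but differed in the circulating sum.

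All 4 circulating genes, 12 of 13 erythroblast genes and all 11 genes of other cell types had log2 fold changes below 0. The medians were -0.52, -0.45 and -0.46. The circulating median is over only 4 genes, and Hba-a1, which weighed most in that sum, stood at -0.17. The log2 sums ranked the other way, with group means differing by -0.21 for the circulating and -0.37 for the erythroblast group. None of the 28 genes was called, and the 4 genes with an unadjusted p under 0.05 were all among the 11 that other cell types also make. The same 4 were all among the 12 genes of 3000 bases or more. The log2 ratio of the circulating to the erythroblast sum was 1.55, 1.499, 1.51, 1.81 and 1.25 in wild type 1 to 5, a mean of 1.52 ± 0.20 (SD, n = 5). It was 1.06, 2.31, 1.85, 1.26 and 1.93 in labelled knockout 1 to 5, a mean of 1.68 ± 0.51 (SD, n = 5). The difference of 0.16 was smaller than either SD, and no test was run on this score. Labelled knockout 2, 3 and 5 lay above the highest wild type, and labelled knockout 1 below the lowest. The difference was 0.003 without labelled knockout 2, and -0.04 when the mean of log2 CPM was taken in place of the sum.

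**Figure D3:**
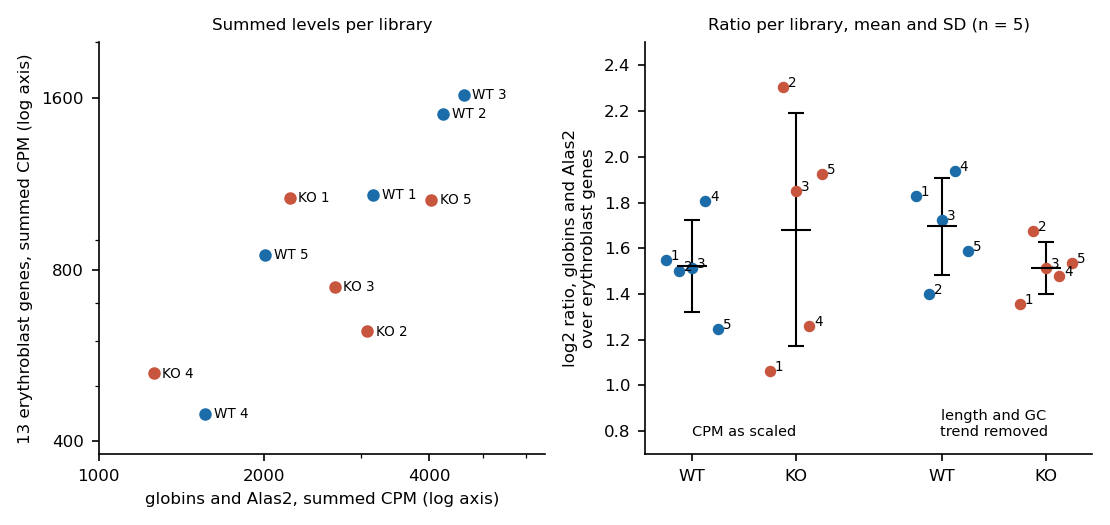
Summed CPM of the 4 circulating red cell transcripts against the 13 erythroblast genes (left, log axes) and their log2 ratio (right), for each library. Wild-type ratios lie between 1.25 and 1.81, and the labelled knockout ratios spread from 1.06 to 2.31.

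Transcript length differed between these groups and also moved with the libraries. The longest transcripts had a median of 664 bases in the circulating group, 2245 in the erythroblast group and 5076 in the rest. Over all genes, the log2 deviation per doubling of length was -0.30, -0.17 and -0.19 in labelled knockout 2, 3 and 5, and 0.15 and 0.11 in labelled knockout 1 and 4. In wild type it ran from -0.10 to 0.21. Genes of 3000 bases or more had a median log2 fold change of -0.15 and shorter genes one of 0.15. Among the erythroid genes all 12 of 3000 bases or more lay below 0 with a median of -0.48, and 15 of 16 shorter ones with a median of -0.34.

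When each library's trend over length and GC content was removed, 27 of 28 erythroid genes lay below 0, with a median of -0.36 against 0.05 over all genes. None was called, against 5 genes higher and 8 lower of all 16018. The group medians were -0.70 for the 4 circulating, -0.54 for the 13 erythroblast and -0.29 for the 11 other genes. The log2 ratio was then 1.83, 1.398, 1.73, 1.94 and 1.59 in wild type 1 to 5 and 1.36, 1.68, 1.51, 1.48 and 1.54 in labelled knockout 1 to 5. The means were 1.70 ± 0.21 and 1.51 ± 0.11 (SD, n = 5 each), a difference of -0.18 in the opposite direction, and no labelled knockout library lay above the highest wild type. Hba-a1 had a log2 fold change of -0.55 (edgeR adjusted p = 0.248) in that fit, and Hba-a2 one of -1.05 (edgeR adjusted p = 0.172). Epb41 stood at 0.04, Fech at -0.06 and Ank1 at -0.34. This fit was chosen after the data were seen.

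**Figure D4:**
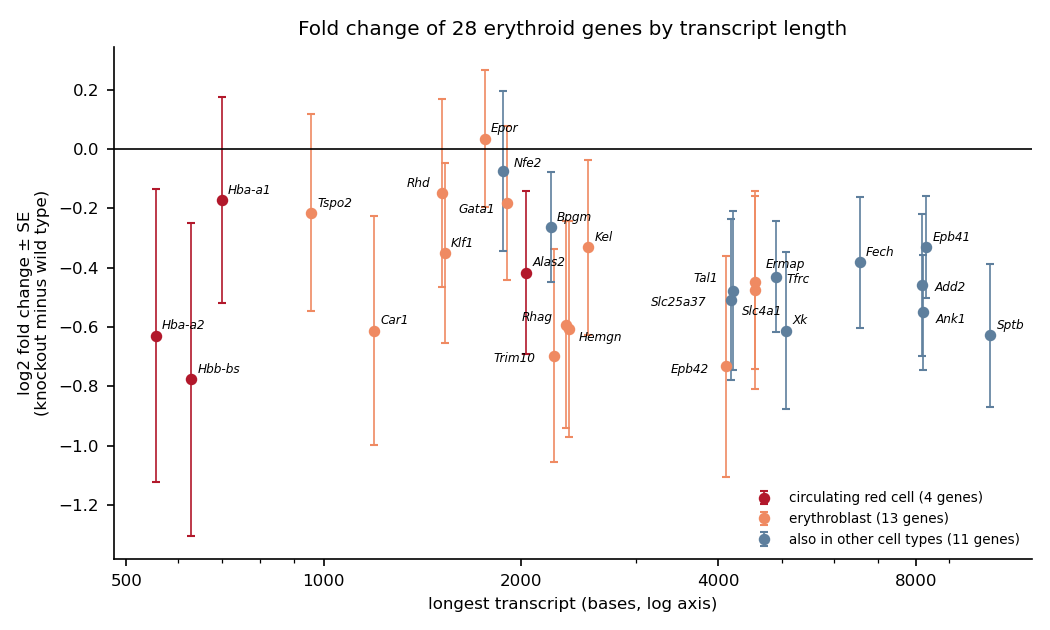
Log2 fold change with its SE (labelled knockout minus wild type) of 28 erythroid genes against the length of the longest transcript (log axis), coloured by group. Only Epor lies above 0, at 0.03, and the globin genes at the short end range from -0.78 to -0.17.

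Marrow and blood hold other cells, and their markers were summed to set beside the erythroid values. All 10 megakaryocyte and platelet genes were detected, at 151 to 338 CPM in wild type and 149 to 266 CPM in labelled knockout, and 8 had log2 fold changes below 0. All 15 genes of neutrophils and their precursors were detected, at 484 to 1826 CPM in wild type and 351 to 1134 CPM in labelled knockout, with 13 below 0 and a median of -0.48. All 12 B-cell precursor genes were detected, at 198 to 453 CPM in wild type and 149.8 to 244 CPM in labelled knockout, and all lay below 0 with a median of -0.59. None of these genes was called. Median deviations of the neutrophil list were 0.62, 1.18, 0.55, -0.66 and -0.80 in wild type 1 to 5 and -0.27, 0.43, 0.12, -1.30 and 0.22 in labelled knockout 1 to 5. It was high in wild type 2 and low in wild type 4 and labelled knockout 4, as the erythroid genes were. Unlike the median of the 28 erythroid genes (-0.54 and -0.05), it was above its mean in labelled knockout 2 and low in wild type 5. In wild type 5 the 4 circulating genes had a median of -0.37 and the 13 erythroblast genes one of -0.09. Single erythroid genes differed in labelled knockout 2, with Hba-a1 at 0.30 and Sptb at -0.97. The part of marrow or blood content in the erythroid differences was not tested.

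Endothelial genes, the markers of vessel walls, had overlapping sums, at 663 to 795 CPM in wild type and 673 to 749 CPM in labelled knockout. All 11 were detected and 6 lay below 0, with a median of -0.17. Osteoclast genes had mostly positive values. All 8 were detected, with 1957 to 3246 CPM in wild type and 3116 to 5986 CPM in labelled knockout, and 7 had log2 fold changes above 0, with a median of 0.67 and none called. Neuronal genes, which matter for Epb41, Ank1 and Add2 because neurons also make them, ran at 2092 to 3051 CPM in wild type and 1115 to 2408 CPM in labelled knockout, with all 10 below 0, a median of -0.48 and none called. Skeletal muscle genes were low, at 30.8 to 39.6 CPM in wild type and 31.04 to 46.2 CPM in labelled knockout, with 6 of 10 tested. No marker on these lists was at 0 in every library. The share of these cells in the levels of the genes they also express was not tested.

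**Figure D5:**
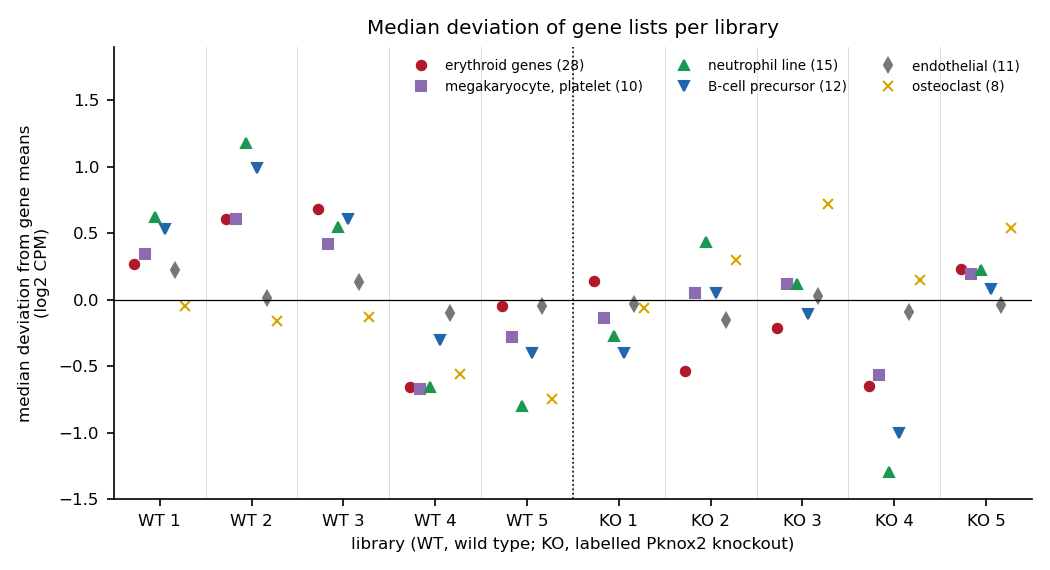
Median deviation of 6 gene lists from gene means (log2 CPM) in each of 10 libraries. Erythroid, megakaryocyte, neutrophil and B-cell lists lie above 0 in wild type 1 to 3 and below 0 in wild type 4 and labelled knockout 4, while the endothelial list stays between -0.15 and 0.22.

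The labels give no sex. Summed Y-linked genes, which males express, ran from 102 to 225 CPM in wild type. They stood at 209 CPM in labelled knockout 1 and at 0 to 11.3 CPM in labelled knockout 2 to 5. With this sum as a covariate the median log2 fold change of the erythroid genes was -0.19, with 27 of 28 below 0. None was called, but no gene of all 16018 was called in that fit. None of the 28 had an unadjusted edgeR p under 0.05, against 1.83% of all genes. Y-linked level and genotype label largely went together, and their parts cannot be told apart.

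Other genes of the lineage were taken from a list of 57, of which 52 were tested. None was called by edgeR, DESeq2 or limma-voom. An unadjusted p under 0.05 was given to 9 of 52 by edgeR, to 13 of the 57 that DESeq2 tested and to 8 of 52 by limma-voom, beside the shares of all genes given above (20.1%, 17.6% and 20.9%). Of the 52, 38 lay below 0, with a median of -0.28. All 11 further membrane genes lay below 0. Those with the smallest p were Gypc, glycophorin C, at -0.30 (edgeR adjusted p = 0.214), and the glucose transporter Slc2a1 at -0.38 (edgeR adjusted p = 0.233). Of 11 further regulators 7 lay below 0, and the smallest p belonged to Kit, the stem cell factor receptor, at -0.37 (edgeR adjusted p = 0.225), and Myb, a factor of progenitors, at -0.71 (edgeR adjusted p = 0.227). Of 14 reticulocyte and late genes 11 lay below 0, with a median of -0.45, led by Ube2o, a ubiquitin enzyme of reticulocytes, at -0.38 (edgeR adjusted p = 0.214), and the transporter Abcg4 at -0.49 (edgeR adjusted p = 0.227).

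Haem and iron genes outside the set were split, with 7 of 14 below 0 and a median of -0.04. The smallest p belonged to Cpox, coproporphyrinogen oxidase, at -0.61 (edgeR adjusted p = 0.255), and the mitochondrial transporter Abcb10 at -0.41 (edgeR adjusted p = 0.276). Alad and Urod, which act between aminolevulinate and the porphyrins in every haem-making cell, had values above 0, at 0.31 (edgeR adjusted p = 0.388) and 0.24 (edgeR adjusted p = 0.496). They are named after their values were seen. The minor alpha-like globins Hbq1a and Hbq1b had log2 fold changes of -0.27 (edgeR adjusted p = 0.645) and -0.38 (edgeR adjusted p = 0.432). The embryonic globins Hbb-y, Hbb-bh1, Hbb-bh2 and Hba-x had at most 2 counts in any library and did not pass the filter on low counts.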

How the data were processed

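RNA of whole cochlea was sequenced in 10 libraries, 5 per label. The authors deposited raw read counts per Entrez gene ID, and the values are whole numbers. HISAT2, featureCounts, limma and the build mm10 are named without roles or versions, per the submitters' processing notes. Annotation, strand setting and the handling of reads that match several places: not given in the sources used here. Reads of a gene and of an overlapping antisense gene therefore cannot be told apart. Symbols and positions came from RefSeq (GRCm38.p6), which named 25275 of 27179 IDs, and GENCODE M21 brought this to 25293. Erythroid members and gene lists were chosen with earlier results of these data known.

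Counts were tested with edgeR 4.0.16 in R 4.3.3 (quasi-likelihood F-test, TMM scaling, filterByExpr with a minimum count of 10 and total of 15, 16018 genes). P-values were adjusted by Benjamini-Hochberg over all of them and called under 0.05. The SE is the size of the log2 fold change over the square root of F. Deviations use log2 CPM with a prior count of 2. The fit was checked on simulated data. Totals of 16.6 to 19.4 M counts limit Tspo2 most, with 24 to 83 counts. No column was unmapped, and no library pair was identical.

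Values in every library are given for the globins, Alas2, Epor, Gata1, Klf1 and the 2 members with the highest mean CPM of each other role, and also for Ank1 and Sptb, chosen after their p-values were seen. Of the further erythroid genes, up to 2 with the smallest p per list are named. Alternatives were other scalings and filters, DESeq2 1.42.0, limma-voom (limma 3.58.1), a replicate block, Y-linked expression or the first principal component as a covariate, fewer libraries, and other definitions of the ratio. The length and GC fit and the ratio with Hbb-b1 were added after seeing the data.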

Additional observations from a re-analysis of the deposited data

How the results depend on the processing

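The count of called erythroid genes was 0 under all 22 alternatives to the edgeR fit, as was that of the other erythroid genes. Over all genes DESeq2 called 193 higher and 130 lower, and the fit without labelled knockout 1 called 108 and 58. The fit with the length and GC trend removed called 5 and 8. Every other fit called at most 1 gene higher and 2 lower, so a count of 0 says little there. The median log2 fold change of the 28 stayed below 0, between -0.62 and -0.19. When each library was left out in turn it ran from -0.62 to -0.30. The difference in the log2 ratio of circulating to erythroblast sums ran from 0.0029 (without labelled knockout 2) to 0.31 (without labelled knockout 1) when each library was left out. It was -0.36 without labelled knockout 2, 3 and 5, the libraries with the highest ratios, so that its direction followed from their removal. It was -0.18 after removal of the length and GC trend, -0.04 with the mean of log2 CPM, 0.11 with a wide circulating group, 0.18 with globins only and 0.08 with Hbb-b1 added. Epor turned to -0.047 with Y-linked expression as a covariate, -0.24 with the first principal component, -0.32 without labelled knockout 2, 3 and 5 and -0.19 after removal of the length and GC trend. Epb41 turned to 0.013 with Y-linked expression and 0.040 with the trend removed. When each library was left out, Hba-a1 ran from -0.36 to 0.060, Epor from -0.12 to 0.16, Rhd from -0.33 to 0.12 and Nfe2 from -0.24 to 0.079. The causes of these turns were not tested. Hbb-b1 has no GENCODE length, so no trend was removed from it. Same-numbered libraries correlated at 0.16, 0.51, 0.03, 0.09 and -0.38. These values do not settle whether the numbers pair the libraries, and the labels give no litter or batch. With the replicate number as a block, 0 erythroid genes were called, the median was -0.40, and the ratio difference was 0.16.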
